A study of Mus musculus with 4 samples.

Results

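The laminin and integrin chains were taken as the 38 genes whose symbols in the count table named a laminin α, β or γ chain or an integrin α or β chain, out of 54021 symbols. They comprised 11 laminin chains, 18 integrin α chains and 9 integrin β chains, and 4 symbols with the same start that name other proteins (Itgb1bp1, Itgb1bp2, Itgb3bp and Itgbl1) were left out. RNA-seq was done on reconstituted ovaries (rOvaries), the grafts that form when primordial germ cells are aggregated with somatic cells of fetal gonads and placed beneath the kidney capsule. The comparison asked which transcripts differed in grafts of recipients given INK128, an inhibitor of the mTOR kinase, with 2 INK128 libraries (replicates 1 and 2) and 2 control libraries (replicates 1 and 3). In both groups the recipients were bilaterally ovariectomized G2 Terc-/- females on a C57BL/6 background, aged 2 to 3 months at transplantation, which lack the RNA component of telomerase. The donor cells came from C57BL/6 fetuses carrying actin-GFP, so graft tissue and invading host tissue differed in genotype, and the grafts were collected after 4 weeks. INK128 was given in drinking water (30 μM/L in the study's methods, and 0.75 uM/g of body weight in the labels), and the controls received none. The libraries held 19130209 to 23029089 counts. How many grafts or mice each library came from is not stated, so p-values measure the spread between these libraries.

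Laminins are cross-shaped heterotrimers of 1 α, 1 β and 1 γ chain that form the sheet of every basement membrane, and integrins are αβ heterodimers that hold cells to laminins, collagens and other matrix proteins. In the ovary, a basement membrane surrounds each follicle and lies outside the granulosa cells, while others line blood vessels, smooth muscle and the surface epithelium. The kidney beneath the graft is also rich in both families, and the β2 and β7 integrins are carried by leukocytes.

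The libraries did not stand equally close. The INK128 replicates correlated at 0.98 across genes (log2 CPM, where CPM is the count scaled to the library total times its TMM factor) and the controls at 0.806, and 1% and 13.8% of genes, respectively, differed more than 2-fold within the pair. Markers of kidney epithelium summed to 102 and 220 CPM with INK128 and to 893 and 1960 CPM in controls. Sertoli cell markers stood at 1750 CPM in control 1 against 74.0 to 164 CPM elsewhere, and oocyte markers at 28.2 CPM in control 3 against 842 to 1170 CPM elsewhere. The granulosa cell marker Foxl2 was present in all 4 libraries, at 146 to 371 CPM.

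Among the 38 chains, 25 had a mean above 10 CPM and entered the main test, 10 lay between 1 and 10 CPM and were tested in a wider fit, and Itgad, Itgae and Itgb2l lay under 1 CPM and were not tested. Itga3 and Itgb8 fell with INK128, by 2.97-fold and 6.22-fold, and no chain rose (edgeR quasi-likelihood test, adjusted p under 0.05 and a fold change above 1.5). These were 2 of 25 chains called lower, against 3.19% of the 11758 genes tested, and 0 called higher, against 3.18%. At an unadjusted p under 0.05 the same test held 10 chains, 7 lower and 3 higher, where 18.7% of all genes were lower and 17.7% higher. This count was near the background. DESeq2 on the same genes called 7 chains lower, among them Itga3, Itgam, Itgb2, Itgb8, Lama1 and Lama5, and 2 higher, Lamb1 and Lamc3. It called 15.1% and 13.6% of all genes. In the wider fit over 17631 genes, edgeR called 0 chains and 0.0% of all genes, with 14 chains at an unadjusted p under 0.05 (11 lower and 3 higher), where 17.8% of all genes were lower and 15.1% higher. In bulk tissue, fewer cells of a type and less RNA per cell cannot be told apart for any of these values.

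Of the 25 chains, 14 lay below both controls in both INK128 libraries, against 34.0% of all genes, 3 lay above both controls, against 34.5%, and 8 overlapped. Of the 35 chains above 1 CPM, 19 lay below both controls, against 35.3% of all 17631 genes at that level, and 5 lay above, against 30.9%. The median log2 fold change (INK128 minus control) was -0.52 over 9 laminin chains and -0.68 over 16 integrin chains, beside -0.03 over all genes tested. With each library's trend on exon length removed by offsets, the medians were -0.14, -0.18 and 0.05. The median exon length of the tested chains was 9681 bases for laminins and 6235 for integrins, against 4466 over all genes tested.

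**Figure D1:**
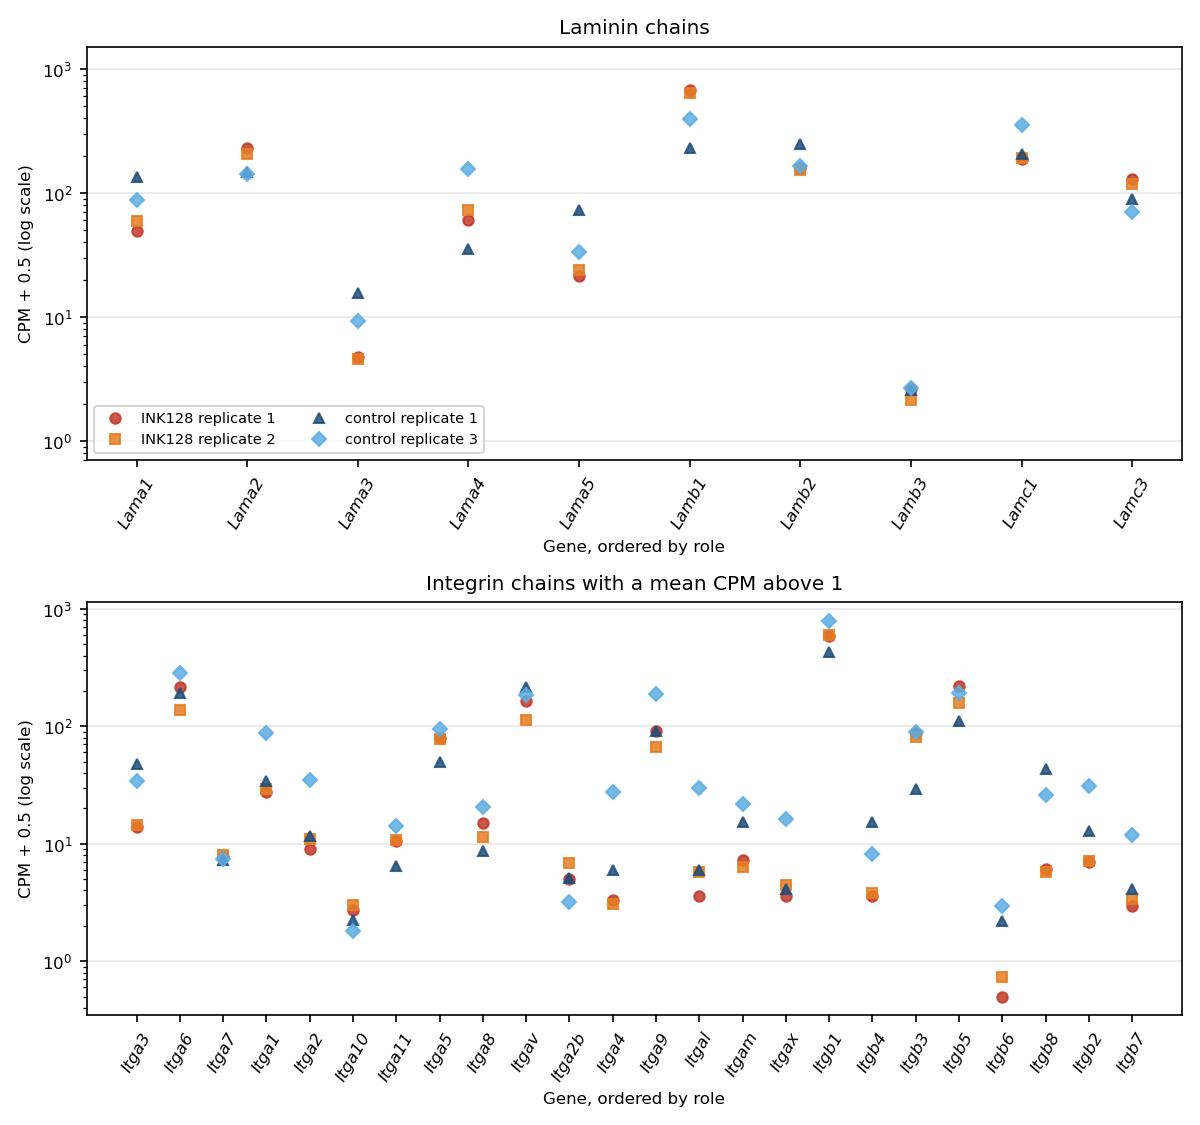
CPM + 0.5 on a log scale for 34 chains with a mean above 1 CPM, laminins in the upper panel and integrins in the lower, with 1 point for each of the 4 libraries. The INK128 points of Itga3 (13.3 and 14.0 CPM) and Itgb8 (5.64 and 5.29 CPM) lie below both controls, those of Lamb1 (681 and 636 CPM) lie above both, and the controls of Lama4 lie 4.46-fold apart.

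The laminin α chains did not move together. Lama2, the α chain of muscle and nerve basement membranes, had 228 and 204 CPM with INK128 and 146 and 142 CPM in controls (216 ± 16.7 against 144 ± 2.78, SD, n = 2 each). The groups did not overlap and the controls differed by a factor of 1.03. Its log2 fold change was 0.59 (SE 0.17), with an adjusted p of 0.0879 in edgeR and 0.0153 in DESeq2, where it stayed under the fold limit. With each library's trend on exon length removed, the log2 fold change of Lama2 was 1.27. Lama1, the α chain of early embryonic basement membranes that is also made in kidney tubules, lay on the other side, with 48.7 and 58.4 CPM against 133 and 87.0 CPM in the control pair. A log2 fold change of -1.04 (SE 0.27) came with an adjusted p of 0.0742 in edgeR and 0.0084 in DESeq2, and it was -0.57 with exon length offsets (adjusted p = 0.287 in edgeR). Lama5, the widespread α chain of epithelial and vessel basement membranes, had 20.8 and 23.3 CPM against 73.0 and 33.1 CPM. The control values of Lama5 were 2.21-fold apart, and its log2 fold change of -1.27 (SE 0.42) had an adjusted p of 0.111 in edgeR and 0.0303 in DESeq2. That of Lama5 was -0.58 without control 1 and -0.75 with exon length offsets.

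The remaining α chains included the most variable and the rarest. Lama4, the α chain of endothelium, muscle and fat, had 60.5 and 73.0 CPM with INK128, which lay between the 35.0 CPM of control 1 and the 156 CPM of control 3. Its log2 fold change was -0.52 (SE 0.70, adjusted p = 0.615 in edgeR), and it was 0.93 without control 3 and -1.22 without control 1. Lama3, the α chain of epithelial anchoring laminin, had 4.24 and 4.05 CPM against 15.1 and 8.77 CPM in controls. The groups did not overlap, and in the wider fit its log2 fold change was -1.47 (SE 0.41, adjusted p = 0.089 in edgeR).

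Among the β chains, Lamb1 had the highest level per kilobase with INK128. Lamb1, the common β chain of most laminins, had 681 and 636 CPM with INK128 and 230 and 397 CPM in controls (659 ± 31.3 against 314 ± 118, SD, n = 2 each). Both INK128 libraries lay above both controls, and the controls were 1.72-fold apart. The log2 fold change was 1.07 (SE 0.31), with an adjusted p of 0.0882 in edgeR and 0.0105 in DESeq2. With offsets for exon length it was 1.58, and leaving out 1 library at a time gave values from 0.73 to 1.52. Lamb2, the β chain of glomerular, vessel and synaptic basement membranes, had 158 and 153 CPM against 249 and 165 CPM. That difference had a log2 fold change of -0.41 (SE 0.25, adjusted p = 0.297 in edgeR), or -0.08 without control 1. Lamb3, the partner of Lama3 in epithelial laminin, had 1.66 to 2.19 CPM in the 4 libraries with overlapping groups.

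Of the γ chains, Lamc1, the partner in most laminin trimers, had 188 and 191 CPM with INK128 and 204 and 355 CPM in controls. The distance from the INK128 pair to control 1 was much smaller than that between the controls, and the log2 fold change was -0.56 (SE 0.31, adjusted p = 0.253 in edgeR), or -0.11 without control 3. Lamc3, a γ chain of vessels, nerve and reproductive tissues, had 2380 and 2555 counts with INK128 (123 ± 7.23 CPM, SD, n = 2) and 2007 and 1642 counts in controls (79.0 ± 13.9 CPM, SD, n = 2). Its groups did not overlap, and its log2 fold change was 0.63 (SE 0.20) with an adjusted p of 0.1 in edgeR and 0.0453 in DESeq2.

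Divided by exon length, each laminin chain named here was given as a share of its class. Apart from Lama4, these shares did not overlap between the groups, and shares within a class depend on each other since they sum to the whole. On the scale of CPM per kilobase, Lamb1 made 72.3% and 71.7% of the β chain transcripts with INK128 and 36.0% and 59.4% in controls. The ratio of Lamb1 to Lamb2 per kilobase was therefore 2.64 and 2.56 with INK128, 0.568 in control 1 and 1.48 in control 3. Lama2 made 53.2% and 46.3% of the α chain transcripts per kilobase with INK128 and 26.7% and 25.3% in controls. Lama1 made 19.2% and 22.3% with INK128 and 41.2% and 26.2% in controls. The leading α chain per kilobase was thus Lama2 in both INK128 libraries, Lama1 in control 1 and Lama4 (37.7%) in control 3. In control 1 this ranking depended on the division by exon length. By CPM alone, Lama2 led there at 36.3% against 33.1% for Lama1, and Lama4 still led control 3 at 36.6%. The mean share of Lama2 by CPM alone was 59.6% with INK128 and 34.8% in controls. Lamc1 led the γ chains in all 4 libraries, at 51.5%, 54.0%, 55.8% and 78.1%, and Lamc3 made 47.4% and 45.2% of them with INK128 and 33.0% and 20.7% in controls. Summed over each class, the β chains had 95.0 and 89.5 CPM per kilobase with INK128 and 64.4 and 67.4 in controls. The α chain sums were 26.2 and 27 against 33.4 and 34.3, and the γ chain sums of 44.2 and 42.7 against 44.2 and 54.9 met at control 1. With 2 libraries against 2, an exact two-sided permutation test cannot go below 0.333, so the shares are given as a description.

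**Figure D2:**
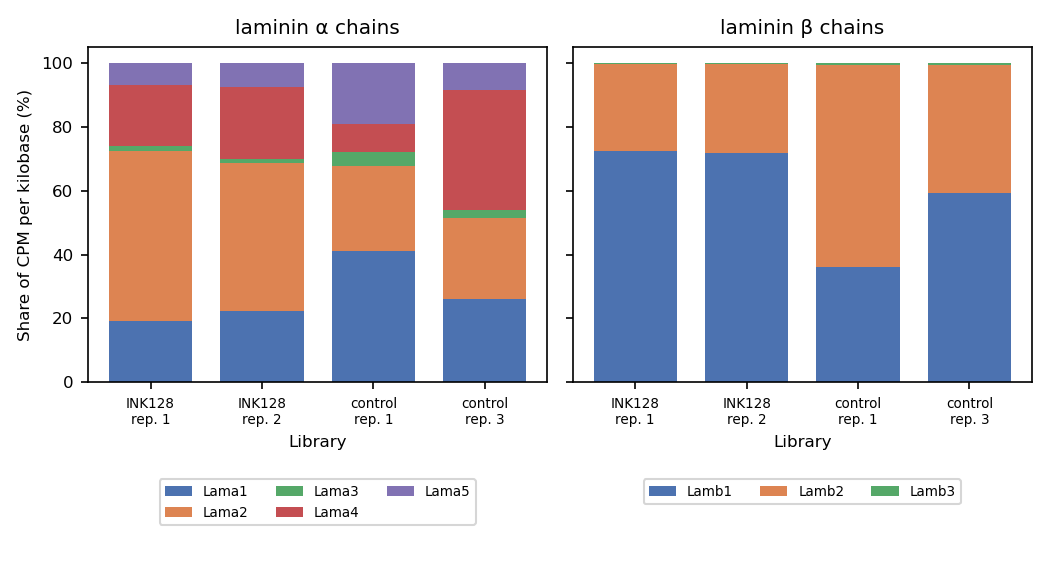
Share of CPM per kilobase of exon taken by each laminin chain within the α and β classes (%), with 1 stacked bar for each of the 4 libraries. Lamb1 takes 72.3% and 71.7% of the β bars with INK128 against 36.0% and 59.4% in controls, and Lama2 takes the largest part of the α bars in both INK128 libraries.

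Of the integrin α chains that bind laminin, Itga3 fell and Itga6 did not pass the test. Itga3 (chromosome 11, 95044474 to 95076801, GRCm38), a laminin receptor chain of epithelia and of kidney podocytes, had 13.3 and 14.0 CPM with INK128 and 47.2 and 33.8 CPM in controls (13.6 ± 0.475 against 40.5 ± 9.49, SD, n = 2 each). The gap between the groups was larger than that within either pair. The log2 fold change was -1.57 (SE 0.26), with an adjusted p of 0.0477 in edgeR and 4.42e-05 in DESeq2. With exon length offsets it was -1.35 (adjusted p = 0.0886 in edgeR), past the threshold no longer. Itga6, the laminin receptor chain with the highest mean level per kilobase over the 4 libraries among the α chains, had 215 and 138 CPM against 190 and 283 CPM. Its groups overlapped, with a log2 fold change of -0.42 (SE 0.33, adjusted p = 0.39 in edgeR) that ranged from -0.78 to -0.10 when 1 library was left out. The ratio of Itga6 to Itga3 per kilobase was 10.2 and 6.26 with INK128 and 2.55 and 5.29 in controls. Itga7, the laminin receptor chain of muscle, had 7.25 and 7.45 CPM against 6.77 and 6.87 CPM, a log2 fold change of 0.16 (SE 0.32, adjusted p = 0.742 in edgeR, wider fit).

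Itgb4, which pairs with the product of Itga6 in the hemidesmosomes of epithelia, had 3.11 and 3.27 CPM with INK128 and 14.7 and 7.63 CPM in controls. Its groups did not overlap, and in the wider fit the log2 fold change was -1.75 (SE 0.46, adjusted p = 0.082 in edgeR). Lama3, Itgb4 and Itga3 therefore lay below both controls in both INK128 libraries, while Lamb3, of the same epithelial adhesion system, did not.

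Itgb1, the β chain shared by most matrix-binding integrins, was the most abundant integrin transcript per kilobase, and its groups overlapped. It had 589 and 596 CPM with INK128, inside the controls' 431 and 789 CPM. The log2 fold change was -0.04 (SE 0.33, adjusted p = 0.934 in edgeR), and its sign depended on the setting. Per kilobase, Itgb1 made 64.0%, 70.1%, 68.8% and 69.1% of the β chain transcripts in INK128 1, INK128 2, control 1 and control 3.

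Among the β chains that pair with the product of Itgav, Itgb8 fell while the more abundant Itgb3 and Itgb5 overlapped. Itgb8 (chromosome 12, 119158022 to 119238802, GRCm38) encodes the β8 chain, which with αV binds latent TGF-β. It had 5.64 and 5.29 CPM with INK128 and 42.4 and 25.6 CPM in controls (5.46 ± 0.245 against 34.0 ± 11.9, SD, n = 2 each). The lower control lay well above both INK128 libraries, and Itgb8 had the largest absolute fold change among the integrin chains above 10 CPM. The log2 fold change was -2.64 (SE 0.35), with an adjusted p of 0.0464 in edgeR and 2.61e-08 in DESeq2. With exon length offsets it was -2.12 (adjusted p = 0.0881 in edgeR). Leaving out 1 library at a time gave log2 fold changes from -2.96 to -2.23 for Itgb8 and from -1.79 to -1.31 for Itga3. Both calls were lost without INK128 1 and without INK128 2, when the spread came from the control pair alone, and both were kept when control 1 or control 3 was left out.

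Itgb6, the epithelial β6 chain that also binds latent TGF-β, had 0 and 5 counts with INK128 and 38 and 58 counts in controls. The INK128 counts were at or close to the 3 counts taken as the detection floor of a library, and in the wider fit the log2 fold change was -3.99 (SE 1.25, adjusted p = 0.109 in edgeR). It was -3.09 without INK128 1 and -8.47 without INK128 2, where the remaining INK128 library is at 0 and the fitted value is no bound. Itgb5, a vitronectin receptor chain, had 221 and 158 CPM with INK128 and 111 and 190 CPM in controls, and Itgb3, the β chain of platelets and bone-resorbing cells, had 86.5 and 80.7 CPM against 28.5 and 89.3 CPM. Both overlapped, with log2 fold changes of 0.33 (SE 0.34, adjusted p = 0.511) and 0.50 (SE 0.55, adjusted p = 0.533) in edgeR, and that of Itgb3 was 1.55 without control 3 and -0.10 without control 1. The ratio of Itgb5 to Itgb8 per kilobase was 122.0 and 92.7 with INK128 and 8.18 and 23.2 in controls. Itgav itself had 164 and 112 CPM against 216 and 184 CPM, a log2 fold change of -0.53 (SE 0.25, adjusted p = 0.201 in edgeR) that was -0.02 with exon length offsets.

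The other receptors of fibronectin and related ligands did not pass the test. Itga5, the main fibronectin receptor chain, had 79.0 and 77.1 CPM with INK128, between the 48.7 and 93.8 CPM of the controls. Itga8, a chain of smooth muscle and kidney mesenchyme, had 14.6 and 10.9 CPM against 8.23 and 20.1 CPM. Both overlapped, with log2 fold changes of 0.13 (SE 0.35, adjusted p = 0.799) and -0.15 (SE 0.51, adjusted p = 0.845) in edgeR. Itga2b, the platelet chain, had 4.46 and 6.35 CPM against 4.60 and 2.66 CPM in the wider fit, with a log2 fold change of 0.63 (SE 0.48, adjusted p = 0.403 in edgeR).

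Of the collagen-binding chains, Itga2 and Itga1 lay below both controls, but each rested on control 3. Itga1, the receptor chain for basement membrane collagen, had 27.3 and 28.6 CPM with INK128, 33.4 CPM in control 1 and 87.4 CPM in control 3. Itga2 had 8.43 and 10.5 CPM with INK128, 11.2 CPM in control 1 and 34.1 CPM in control 3. Their log2 fold changes of -1.11 (SE 0.49, adjusted p = 0.174) and -1.25 (SE 0.59, adjusted p = 0.197) in edgeR were -0.26 and -0.23 without control 3, and -1.64 and -1.84 without control 1. With exon length offsets that of Itga1 was -0.34. Itga11, the fibroblast collagen receptor chain, had 10.1 and 10.2 CPM between 5.98 and 13.7 CPM, and overlapped. The cartilage chain Itga10 had 41 and 55 counts with INK128 and 39 and 31 counts in controls, and 33.53% of its exon length is shared with Gm42957 on the same strand.

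Among the leukocyte chains, Itgal also rested on control 3. Itgal, the α chain of the lymphocyte adhesion receptor LFA-1, had 3.11 and 5.20 CPM with INK128, 5.53 CPM in control 1 and 29.2 CPM in control 3. Its log2 fold change of -2.06 (SE 0.87, adjusted p = 0.164 in edgeR) was -0.41 without control 3 and -2.80 without control 1. Itgam, the α chain of macrophages and granulocytes, had 6.82 and 5.80 CPM against 14.7 and 21.1 CPM. Its groups did not overlap, with a log2 fold change of -1.50 (SE 0.33) and an adjusted p of 0.0583 in edgeR and 0.00322 in DESeq2. Gm49368 covers 68.67% of the exon length of Itgam on the same strand, so reads of the 2 genes cannot be fully told apart. Itgb2, the shared β chain of leukocyte integrins, had 6.49 and 6.62 CPM against 12.4 and 30.6 CPM, a log2 fold change of -1.71 (SE 0.51, adjusted p = 0.0907 in edgeR and 0.0162 in DESeq2) that was -0.92 without control 3 and -2.22 without control 1.

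Other chains of immune cells were tested only in the wider fit. Itga4, the α4 chain of lymphocytes and monocytes, had 2.84 and 2.58 CPM with INK128, 5.45 CPM in control 1 and 27.2 CPM in control 3, a log2 fold change of -2.54 (SE 0.83, adjusted p = 0.118 in edgeR) that was -0.95 without control 3. Itgb7, its partner in gut homing, had 2.47 and 2.90 CPM against 3.63 and 11.3 CPM, a log2 fold change of -1.43 (-0.38 without control 3). Itgax, the dendritic cell chain, had 3.06 and 3.91 CPM against 3.63 and 15.6 CPM and overlapped, with a log2 fold change of -1.41 that was 0.0 without control 3. In each of these 3 chains control 3 was the highest library. Itga9, a receptor chain for tenascin and osteopontin found on smooth muscle, epithelium and lymphatic vessels, had 91.0 and 66.0 CPM against 91.2 and 188 CPM. This gave a log2 fold change of -0.83 (SE 0.40, adjusted p = 0.209 in edgeR), or -0.22 without control 3. Itgae, the chain of lymphocytes within epithelia, had 6 and 1 counts with INK128 and 13 and 35 counts in controls, and Itgad and Itgb2l had at most 12 counts in any library.

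**Figure D3:**
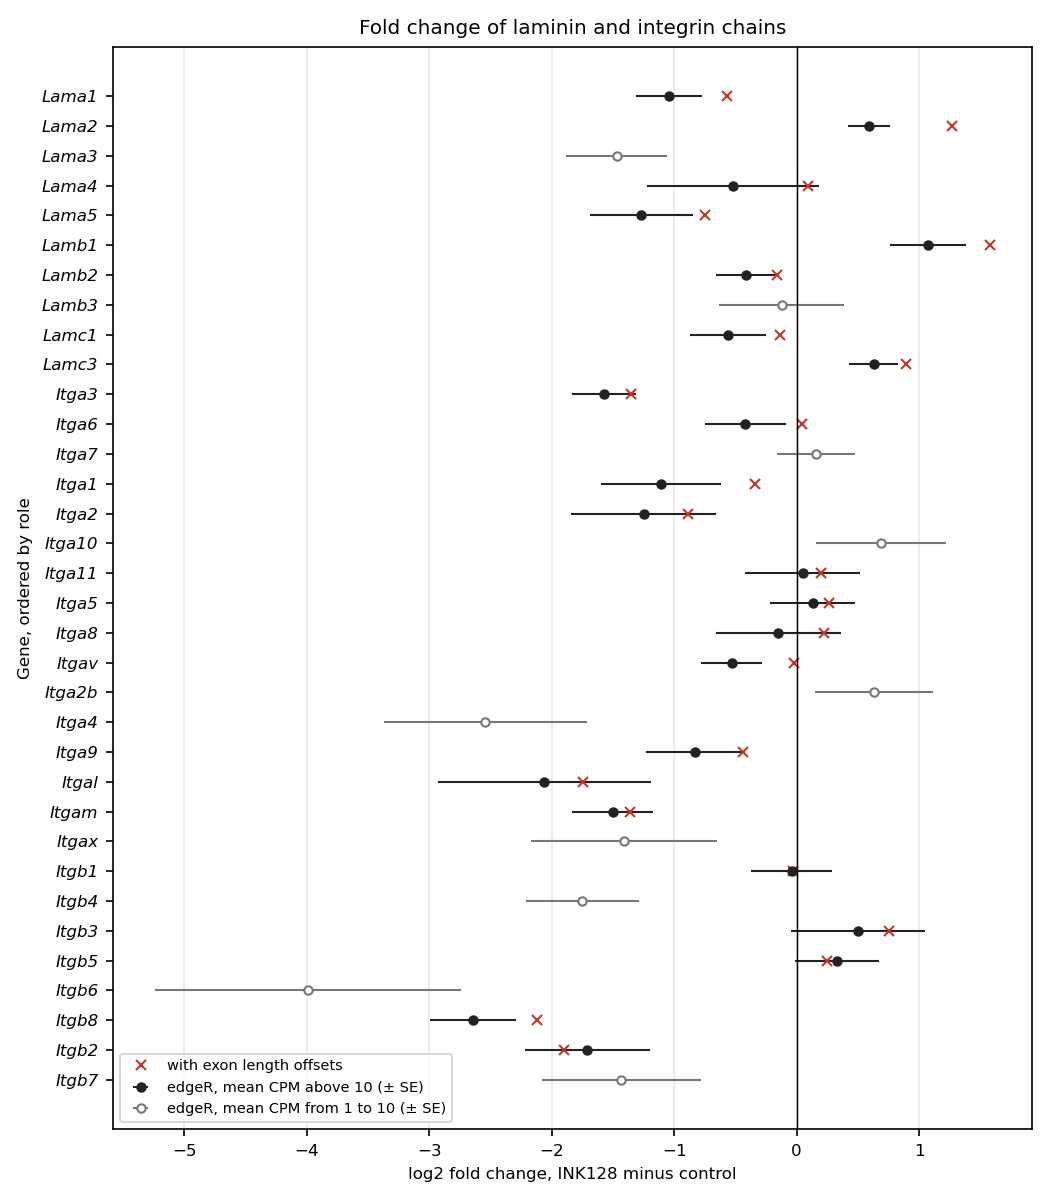
Log2 fold change (INK128 minus control) of 34 tested chains in order of role, as points with bars of 1 SE. Filled points are chains with a mean above 10 CPM, open points those from 1 to 10 CPM, and crosses the chains above 10 CPM with exon length offsets, which were not run for the others. Itgb8 (-2.64) and Itga3 (-1.57) are the called chains, Lamb1 (1.07), Lamc3 (0.63) and Lama2 (0.59) lie to the right, and most crosses lie to the right of their points.

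The markers of several cell types differed along with these values, and their counts stand beside 35.3% of genes above 1 CPM below both controls and 30.9% above. Of 20 kidney epithelium markers above 1 CPM, 18 lay below both controls with INK128, and 7 of the 16 above 10 CPM were called lower, against 3.19% of all genes. The defining proximal tubule transcripts Slc34a1 and Lrp2 had 7.03 and 22.4 CPM, and 3.06 and 4.14 CPM, with INK128. In controls Slc34a1 had 241 and 510 CPM and Lrp2 had 51.1 and 97.7 CPM. Surface epithelium and mesothelium markers summed to 34.8 and 33.4 CPM with INK128 and to 168 and 97.7 CPM in controls, with 8 of 9 below both. Leukocyte markers summed to 282 and 294 CPM against 460 and 680 CPM, with 12 of 16 below both, and Ptprc, the pan-leukocyte marker, had 7.84 and 6.90 CPM against 9.43 and 46.8 CPM. The part of these cells in the values of Itga3, Itgb8, Itgb4, Itgb6, Lama1 and Lama3, which epithelia express, and of Itgb2 and its α chains, was not tested.

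On the other side, smooth muscle and pericyte markers summed to 6040 and 6020 CPM with INK128 and to 916 and 1970 CPM in controls. Of these 10 markers, 7 lay above both controls and 3 were called higher, against 3.18% of all genes, among them Acta2 (log2 fold change 2.43, SE 0.39). The 3 that overlapped were Rgs5 (0.09), Pdgfrb (0.14) and Notch3 (-0.88), while Cspg4, like these a pericyte marker, lay above both controls (0.85, adjusted p = 0.233 in edgeR). Lama2, Lamb1 and Lamc3 also lay above both controls without passing the test in edgeR, and the part of smooth muscle in their values was not tested. Itga7, the laminin receptor chain of muscle, had the 0.16 given above. Endothelial markers summed to 850, 983, 919 and 1090 CPM and so overlapped, as did the endothelial chain Lama4, but 4 of the 14 markers lay below both controls and 4 above. Kdr, a receptor for VEGF, fell from 166 and 142 CPM to 56.0 and 50.3 CPM (log2 fold change -1.54, SE 0.18, adjusted p = 0.0464 in edgeR). Granulosa cell markers summed to 6400 and 8280 CPM against 3360 and 6610 CPM, also overlapping. Of these 10 markers, 4 lay above both controls, Foxl2 among them, 0 lay below and 6 overlapped. Amh, which overlapped, had 131 and 80.1 CPM with INK128, 435 CPM in control 1 and 5.1 CPM in control 3. Platelet markers were 34.7 and 29.0 CPM against 20.5 and 12.7 CPM.

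**Figure D4:**
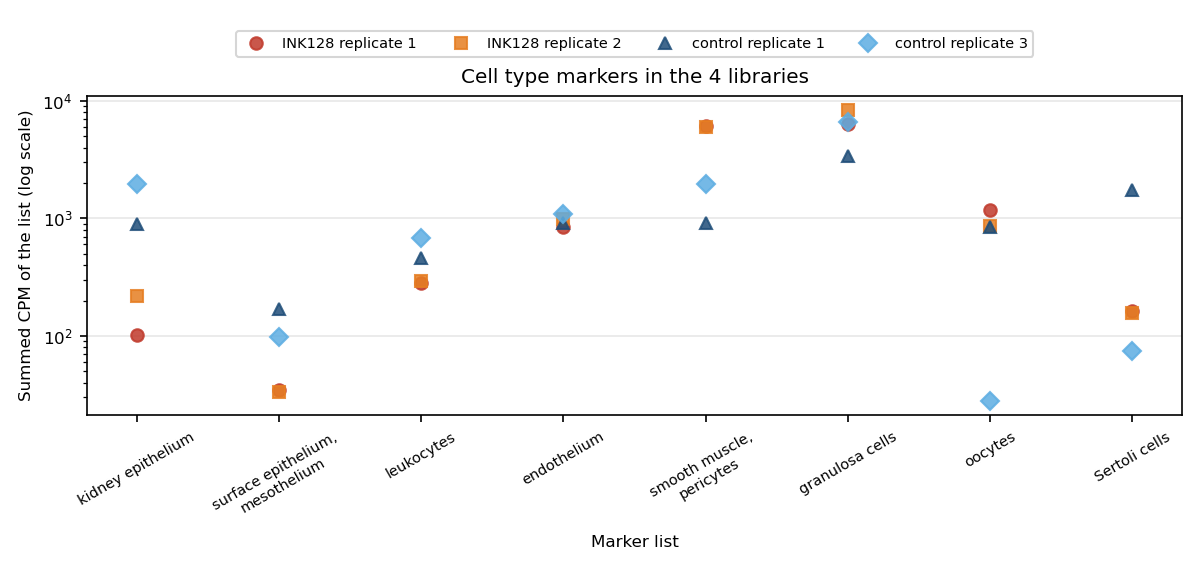
Summed CPM (log scale) of 8 cell type marker lists, with 1 point for each of the 4 libraries. Kidney epithelium is at 102 and 220 CPM with INK128 and 893 and 1960 CPM in controls, smooth muscle and pericytes are at 6040 and 6020 against 916 and 1970 CPM, and control 1 is high for Sertoli cells (1750 CPM) and control 3 low for oocytes (28.2 CPM).

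The other proteins of the basement membrane and of integrin adhesion were counted over 4 lists, beside the shares of all genes tested (edgeR calls 3.19% lower and 3.18% higher, DESeq2 calls 15.1% and 13.6%). Of 20 tested basement membrane partners (collagen IV chains, nidogens, perlecan, fibulins and the like), 0 were called in edgeR, 5 had an unadjusted p under 0.05 (all genes: 18.7% lower and 17.7% higher), DESeq2 called 3 lower and 2 higher, and the median log2 fold change was -0.09, or 0.22 with exon length offsets. None of these counts exceeded the shares of all genes. The smallest adjusted p-values were those of Fbln1, a fibulin, with 151 and 173 CPM against 338 and 281 CPM, and of Nid2, a nidogen that links laminin to collagen IV, with 202 and 178 CPM against 88.9 and 115 CPM. Both kept apart from the controls, but at adjusted p-values of 0.0562 and 0.0625 in edgeR neither passed the test.

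Of 18 tested integrin ligands other than laminins and collagens, 2 were called lower (5 in DESeq2), and the median was 0.12, or 0.43 with exon length offsets. Spp1, or osteopontin, a ligand of the αV and α9 integrins that kidney tubules and macrophages make, fell from 91.9 and 185 CPM in controls to 4.88 and 9.57 CPM with INK128 (log2 fold change -4.26, SE 0.54, adjusted p = 0.0464 in edgeR). Ltbp1, which tethers latent TGF-β to the matrix where the αV integrins bind it, fell from 237 and 329 CPM to 118 and 104 CPM (-1.35, SE 0.24, adjusted p = 0.0487 in edgeR), and was at -0.82 with exon length offsets. For both genes the 2 INK128 libraries lay below the 2 controls.

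Of 19 tested genes for dystroglycan, its complex and other laminin receptors, 2 were called lower and 1 higher (5 and 2 in DESeq2), with a median of -0.39 that was 0.01 with exon length offsets. Utrn, utrophin, fell from 102 and 122 CPM to 35.1 and 37.9 CPM (log2 fold change -1.62, SE 0.19, adjusted p = 0.0464 in edgeR), and its partner syntrophin Sntb2 fell from 131 and 139 CPM to 51.7 and 56.1 CPM (-1.32, SE 0.16, adjusted p = 0.0464 in edgeR). With exon length offsets, under which no gene was called, Utrn was at -0.91 and Sntb2 at -0.81. Rpsa, the ribosomal protein also described as a laminin receptor, rose from 1240 and 918 CPM to 2650 and 3120 CPM (1.42, SE 0.24, adjusted p = 0.0486 in edgeR). Dag1, dystroglycan itself, had 360 and 315 CPM against 410 and 614 CPM and was not called.

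Of 32 tested components of the integrin adhesion complex inside the cell, 1 was called lower and 1 higher in edgeR, close to its background, 9 and 2 in DESeq2, and 16 lay below both controls, against 34.0% of all genes. The median was -0.43, or -0.20 with exon length offsets. Parvb, β-parvin, which binds integrin-linked kinase, fell from 62.0 and 65.9 CPM to 23 and 21.5 CPM (log2 fold change -1.52, SE 0.18, adjusted p = 0.0464 in edgeR). Tgfb1i1, the paxillin relative Hic-5 of smooth muscle, rose from 96.2 and 79.6 CPM to 178 and 220 CPM (1.18, SE 0.21, adjusted p = 0.0499 in edgeR).

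The upstream sequence of 4 chains is shown, chosen after their values were seen, as examples from both directions: Itga3 fell, Lama5 was called lower in DESeq2 and not in edgeR, and Lamb1 and Lama2 lay above both controls. RefSeq starts (GRCm38.p6) were found for 24 of the 38 chains, in 27 windows of 200 bases before the start, and the bases printed are those of each window that no GENCODE M21 exon covers. The Itgb8 window lies within an annotated exon and is not printed. The Lama2 window lies inside the annotated span of Lama2 (chromosome 10, 26980036 to 27619758). It precedes an internal RefSeq start, so it is not sequence upstream of the whole gene. Itga3 has 2 windows, and the one not printed (chr11:95069199-95069398) held 0 GC boxes and 1 CCAAT box. Capitals mark GC boxes (GGGCGG) and CCAAT boxes (CCAAT) on either strand.
Itga3, chr11:95076802-95076914, minus strand: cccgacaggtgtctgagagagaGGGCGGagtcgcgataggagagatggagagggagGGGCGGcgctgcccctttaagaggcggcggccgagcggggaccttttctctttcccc
Lama5, chr2:180225860-180226059, minus strand: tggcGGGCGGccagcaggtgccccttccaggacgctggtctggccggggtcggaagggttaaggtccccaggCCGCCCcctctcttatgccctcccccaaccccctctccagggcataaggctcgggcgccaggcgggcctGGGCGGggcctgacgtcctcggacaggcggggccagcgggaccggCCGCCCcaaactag
Lamb1, chr12:31265093-31265233, plus strand: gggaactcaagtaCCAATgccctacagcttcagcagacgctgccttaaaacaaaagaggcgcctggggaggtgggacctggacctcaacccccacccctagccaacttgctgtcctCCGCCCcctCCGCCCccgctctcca
Lama2, chr10:27616943-27617142, minus strand: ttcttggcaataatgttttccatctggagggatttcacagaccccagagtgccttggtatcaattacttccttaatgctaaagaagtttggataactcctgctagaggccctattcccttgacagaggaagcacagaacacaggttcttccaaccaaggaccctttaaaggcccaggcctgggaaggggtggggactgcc
The Itga3 stretch held 2 GC boxes, that of Lama5 held 4, that of Lamb1 held 2 and 1 CCAAT box, and that of Lama2 held neither. Over the 27 windows of the chains, 8 held a GC box, 4 a CCAAT box and 0 a TATA box (TATAAA), where 31.0%, 29.3% and 9.96% of all 32851 RefSeq windows of this length held them. Of the Lama2 exons, 3.86% of the length overlaps Gm48084 on the opposite strand, which had 1325 and 1180 counts with INK128 and 391 and 245 in controls, and the library kit does not mark strand.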

How the data were processed

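Polyadenylated RNA of rOvaries was sequenced from libraries made with a kit that does not mark strand (NEBNext Ultra). Per the labels, the authors used Trimmomatic, HISAT2 and featureCounts with the mm10 genome, and they deposited whole-number read counts per gene symbol. Versions are not given in the sources used here. From the deposited counts, CPM was computed over library totals for the filters and over library totals times TMM factors for the printed values, and exon lengths came from GENCODE M21 (53447 of 54021 symbols matched). Genes with a mean above 10 CPM (11758) were fitted in edgeR 4.0.16 (R 4.3.3) with TMM factors and the quasi-likelihood F-test, Benjamini-Hochberg adjusted over all genes tested. A call needed an adjusted p under 0.05 and a fold change above 1.5. A wider fit took genes with a mean above 1 CPM. DESeq2 1.42.0, limma 3.58.1 (voom), other scalings and filters, exon length offsets (loess, span 0.5) and leaving out each library were alternatives. On simulated counts for 11758 genes with 200 genes changed 8-fold, edgeR recovered 100% of the changed genes and 1.96% of its calls were false, while DESeq2 recovered 100% with 9.91% of its calls false. The simulation gave every gene and both groups the same dispersion (0.0949) and held no smaller changes. The real control pair varied far more than the INK128 pair, so these rates do not carry over to the data. The detection floor of 3 counts equals 0.127 to 0.161 CPM and covers counting error only. Every chain is accounted for by role, except that 1 is counted but not reported here. In each role, values per library were given at least for called chains, the chain with the highest level per kilobase and the one with the largest absolute log2 fold change. From each pathway list, called genes were named, or the 2 smallest adjusted p-values where none was called. The members and all gene lists were chosen with earlier results of these data known.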

Additional observations from a re-analysis of the deposited data

How the results depend on the processing

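The count of chains called lower, 2 as reported, was 7 in DESeq2 (15.1% of all genes), 0 in limma voom, 0 in edgeR above 1 CPM, 10 with no filter, 0 with exon length offsets, and 0 to 12 when 1 library was left out. Limma voom, the fit above 1 CPM and the offsets called 0 of all genes. In the edgeR fit above 1 CPM, 11 of 35 chains were lower at an unadjusted p under 0.05, against 17.8% of all genes. With no filter 6.2% of all genes were called lower and 3.66% higher. The count of chains called lower stayed at 2 with relative log expression factors, with library totals and without the fold limit. At an adjusted p under 0.1 in edgeR, chosen after seeing the data, it was 5. That limit also added 2382 of the 11758 genes tested, counted in both directions, so many genes of all kinds passed it. The count called higher, 0 as reported, was 2 in DESeq2 (13.6% of all genes), 1 with no filter, 0 to 5 when 1 library was left out and 2 at an adjusted p under 0.1. Without INK128 replicate 1 or 2 there were 0 calls either way, with smallest adjusted p-values of 0.381 and 0.438 (edgeR). Without control 1 there were 12 lower and 3 higher (all genes: 23.2% and 22.7%), and without control 3 there were 9 and 5 (21.4% and 21.2%). A lone library is then assumed to vary like the other pair. The median log2 fold change of laminin chains (-0.52) was -0.38 in voom, -0.64 with library totals, which moved the median of all genes from -0.03 to -0.15, -0.46 above 1 CPM, -0.47 with no filter, -0.14 with exon length offsets and -0.58 to -0.11 when 1 library was left out. That of integrin chains (-0.68) was -0.18 with offsets and -0.97 to -0.22 when 1 library was left out. Signs turned for Itga11 with library totals (-0.07) and for Itga6 (0.04), Itga8 (0.22) and Lama4 (0.09) with offsets. Itgb1 was at 0.02 in voom, 0.01 above 1 CPM and 0.0 with no filter. When 1 library was left out, the ranges crossed 0 for Itga11 (-0.43 to 0.77), Itga5 (-0.27 to 0.68), Itga8 (-0.66 to 0.63), Itgb1 (-0.41 to 0.46), Itgb3 (-0.10 to 1.55), Itgb5 (-0.01 to 0.77), Lamb3 (-0.33 to 0.05) and Lama4 (-1.22 to 0.93). The fold changes of Itga3 and Itgb8 kept their sign under every alternative run. No paired analysis was possible because the groups share only replicate number 1. Adjusted p-values of called genes lay between 0.0464 and 0.0499, and 2382 genes over 1.5-fold, 5 of them chains, lay between 0.05 and 0.1.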
